A study of Mus musculus with 24 samples.

Results

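The genes of polyunsaturated fatty acid synthesis and activation were followed in liver RNA of 24 mice after chronic suppression of Keap1. The list of 10 genes held the desaturases Fads1, Fads2 and Scd2, the elongases Elovl1, Elovl2, Elovl3 and Elovl5, and the acyl-CoA synthetases Acsl1, Acsl3 and Acsl5. The genes were listed by name, and every probe set of the array annotated to a listed gene alone was used. This gave 20 probe sets for 9 of the 10 genes, out of 45037 probe sets tested and 18193 genes with a probe set of their own. Acsl1 had no such probe set and was not analysed here. Each gene was represented by its brightest probe set, that with the highest mean signal over all arrays, where genes were counted.

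Male C57BL6/J mice on a Western diet, a high-fat diet with 6% sucrose in the drinking water, were injected every week with 1 mg/kg of siRNA in lipid nanoparticles. Injections went into the tail vein, began at an age of 8 weeks and continued for 7 weeks. The groups of 8 mice received siControl, a scrambled siRNA, or siKeap1-1 or siKeap1-2, chemically modified siRNAs against Keap1, with 1 array per mouse. Keap1 is the protein that holds the transcription factor Nrf2 in check. The nanoparticles carry siRNA mainly to hepatocytes, so the model is a knockdown aimed at the liver and not a loss of the gene. The paper also reports lower Keap1 mRNA in kidney with both siRNAs, without a rise of the Nrf2 target gene Nqo1 there. By the methods, each group comprised 4 mice killed in the fed and 4 in the fasted state, but the labels do not tell them apart. The feeding state was therefore not used in any comparison.

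The liver makes arachidonic acid and docosahexaenoic acid from the essential fatty acids linoleic acid and alpha-linolenic acid of the diet. Desaturases add double bonds and elongases lengthen the chain in alternation, and acyl-CoA synthetases couple fatty acids to coenzyme A before either step can take place. Fads2 catalyses the initial desaturation, Elovl5 and Elovl2 act on polyunsaturated chains, and Fads1 introduces a later double bond. In liver the transcription of Fads1, Fads2 and several elongase genes is known to depend on the sterol regulatory element-binding proteins and on the fatty acid receptor PPAR-alpha.

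Of the members that differed between groups, Fads2, Elovl5 and Acsl3 have a single promoter in RefSeq, which is shown here because these genes were lower with siKeap1-1. The sequences run from 250 bases before to 50 bases after the annotated start (GRCm38.p6) and stand for chr19:10101454-10101753 on the minus strand (Fads2), chr9:77917115-77917414 on the plus strand (Elovl5) and chr1:78657575-78657874 on the plus strand (Acsl3). Capitals mark the CCAAT box (CCAAT, read as ATTGG on the other strand) and the E box (CACGTG).
Fads2 promoter: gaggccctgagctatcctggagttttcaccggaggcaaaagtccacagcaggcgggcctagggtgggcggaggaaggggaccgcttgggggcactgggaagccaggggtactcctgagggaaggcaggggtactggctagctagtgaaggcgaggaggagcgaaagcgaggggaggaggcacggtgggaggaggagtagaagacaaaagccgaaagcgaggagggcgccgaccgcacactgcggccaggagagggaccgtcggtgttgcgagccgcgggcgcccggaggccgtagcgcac
Elovl5 promoter: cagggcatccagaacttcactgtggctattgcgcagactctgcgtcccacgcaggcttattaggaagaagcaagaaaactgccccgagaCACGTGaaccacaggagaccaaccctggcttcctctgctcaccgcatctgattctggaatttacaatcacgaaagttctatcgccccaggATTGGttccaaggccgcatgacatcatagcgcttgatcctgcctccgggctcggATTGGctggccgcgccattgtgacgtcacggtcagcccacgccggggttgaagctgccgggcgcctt
Acsl3 promoter: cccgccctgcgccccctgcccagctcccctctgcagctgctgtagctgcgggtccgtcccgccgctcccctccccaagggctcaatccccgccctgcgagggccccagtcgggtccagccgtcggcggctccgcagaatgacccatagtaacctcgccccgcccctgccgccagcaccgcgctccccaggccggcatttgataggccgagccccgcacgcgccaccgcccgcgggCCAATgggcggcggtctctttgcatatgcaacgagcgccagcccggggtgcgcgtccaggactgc
Both strands were searched for 4 motifs, whose matches do not overlap in these windows. The CCAAT box occurred at 2 positions in the promoter of Elovl5 and at 1 position in that of Acsl3, and was present in 37.4% of 32851 mouse promoters of this length. The E box, a palindrome, occurred at 1 position in the promoter of Elovl5 and in 7.15% of all promoters. A sterol element (TCACNCCAC, in 1.24% of all promoters) and the core of the antioxidant element (TGACNNNGC, in 12.4%) had no match in these windows. Of the 10 listed genes, 7 matched a RefSeq promoter, and Fads1, Elovl3 and Scd2 did not. Among the promoters not shown here, 1 of Acsl1 held a sterol element. Fads1 and Fads2 lie next to each other and to Fads3 on chromosome 19, with 0 other protein-coding genes between them.

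Keap1 mRNA was reduced in every treated mouse. Its log2 signal ranged from 9.33 to 10.03 in the siControl mice, from 7.21 to 7.93 in the siKeap1-1 mice and from 8.03 to 8.59 in the siKeap1-2 mice. This left 22.9% and 38.8% of the control signal (two-sided exact permutation test, p = 0.000155 each, the smallest p that 12870 splits allow). Between the siRNAs Keap1 was lower by 0.76 with siKeap1-1 (limma, adjusted p = 0.0022). A dimmer Keap1 probe set showed log2 fold changes of -0.42 and -0.44. The Nrf2 target genes Nqo1, an NAD(P)H quinone reductase, Gclc, a subunit of the enzyme that begins glutathione synthesis, and Gsr, glutathione reductase, were higher with siKeap1-1, by 2.22, 0.97 and 0.57 on the log2 scale. For siKeap1-2 the increases were 1.91, 0.68 and 0.32. Of the 8 hepatocyte markers, Tdo2, encoding tryptophan dioxygenase, was higher with both siRNAs (0.22 and 0.18), and the remaining 7 did not pass the test. Median log2 signals per array lay between 5.84 and 5.96.

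With siKeap1-1, Fads1, Fads2, Elovl2, Elovl5 and Acsl3 were lower than with siControl, and 0 of the 9 measured genes were higher. Over all genes, 4.67% were lower and 4.82% higher by the same rule, an adjusted p below 0.05 in limma at the brightest probe set. In probe sets, 11 of 20 were lower and 0 higher, against 4.48% lower and 4.51% higher among all 45037. In 9 of the 20 member probe sets, every siKeap1-1 array lay below every siControl array, which held for 0.602% of all probe sets. The median log2 fold change of the 9 genes was -0.29, and that of all genes was 0.014.

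With siKeap1-2, Fads1 and Acsl3 were lower than with siControl and 0 of the 9 genes were higher, whereas 3.75% of all genes were lower and 2.85% higher. In probe sets, 7 of 20 were lower and 0 higher, against 2.96% and 3.15% of all probe sets. In 3 of the 20 probe sets, all of Acsl3, every siKeap1-2 array lay below every siControl array, which held for 0.435% of all probe sets. The median log2 fold change of the 9 genes was -0.13, and that of all genes -0.007. Both comparisons use the same siControl mice, so their values are not independent.

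**Figure D1:**
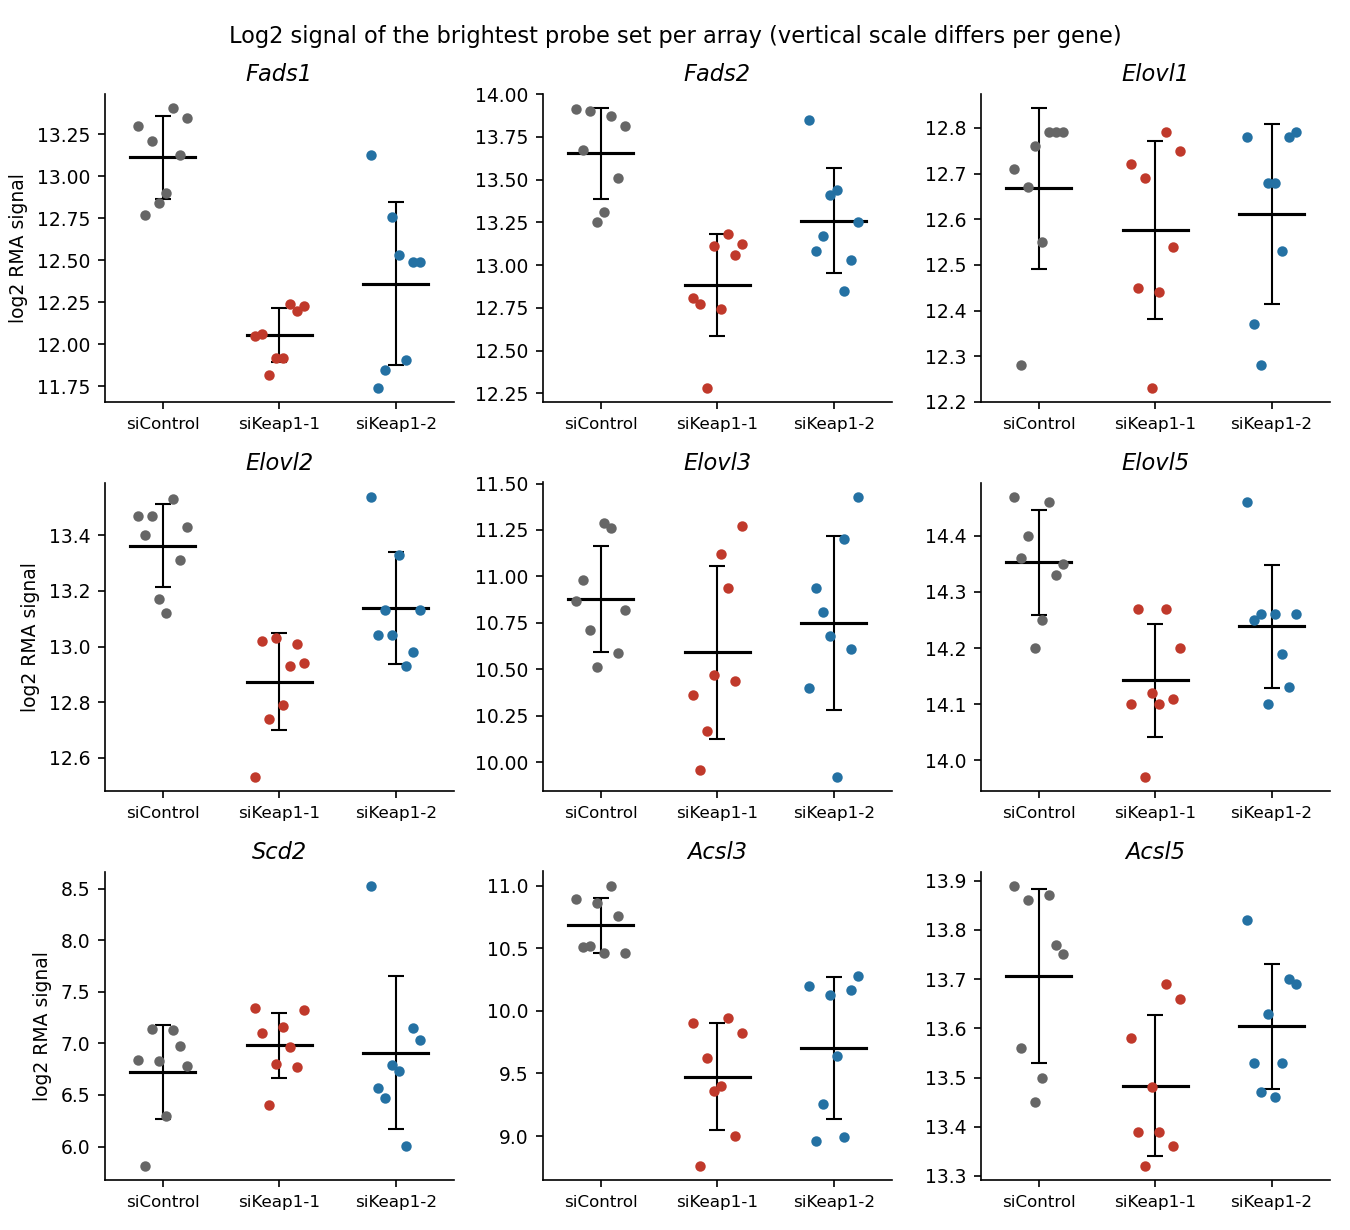
Log2 RMA signal (vertical axes, scaled for each gene) of the brightest probe set of the 9 measured genes in siControl, siKeap1-1 and siKeap1-2, with 1 point per array, bars at the group mean and error bars of 1 SD (n = 8 per group). All siKeap1-1 points lie below all siControl points for Fads1, Fads2, Elovl2 and Acsl3, and for Acsl3 all siKeap1-2 points do so too.

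Fads1, which makes arachidonic acid and eicosapentaenoic acid, was lower with both siRNAs. In the siControl mice its log2 signal was 12.77 at the lowest, 13.17 at the median and 13.41 at the highest. With siKeap1-1 these values were 11.82, 12.06 and 12.24, and with siKeap1-2 they were 11.74, 12.49 and 13.13. All 8 siKeap1-1 arrays and 7 of 8 siKeap1-2 arrays lay below the lowest control, and the exception was siKeap1-2 replicate 1. The log2 fold change was -1.06 ± 0.16 (SE, limma, adjusted p = 7.87e-05) with siKeap1-1, a 2.08-fold lower signal, and -0.75 ± 0.16 (adjusted p = 0.00436) with siKeap1-2, a 1.68-fold lower signal. The spread between mice was 0.16 (SD) with siKeap1-1, 0.25 with siControl and 0.49 with siKeap1-2.

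A dimmer Fads1 probe set, 1440444_at, showed larger differences. Its log2 signal ranged from 9.45 to 10.71 around a median of 10.12 with siControl, from 7.37 to 8.68 around 8.34 with siKeap1-1 and from 7.99 to 10.35 around 8.77 with siKeap1-2. The siKeap1-1 and siControl arrays did not overlap, while 6 of 8 siKeap1-2 arrays lay below the lowest control. The log2 fold changes were -1.78 ± 0.29 (SE, limma, adjusted p = 0.000237) and -1.15 ± 0.29 (adjusted p = 0.0167). Within an array the dimmer minus the brighter signal was -3.08 ± 0.24 (SD, n = 8) with siControl, -3.80 ± 0.36 with siKeap1-1 and -3.48 ± 0.44 with siKeap1-2, and this widening was not tested. The probe sets therefore differed in the size of the change and not in its direction.

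Fads2, the enzyme of the initial desaturation, was lower with siKeap1-1 at all 3 of its probe sets. At the brightest, 1419031_at, the log2 signal was 13.25, 13.74 and 13.91 (lowest, median and highest) with siControl, 12.28, 12.93 and 13.18 with siKeap1-1 and 12.85, 13.21 and 13.85 with siKeap1-2. No siKeap1-1 array reached the lowest control, whereas 5 of 8 siKeap1-2 arrays lay below it. The log2 fold change was -0.77 ± 0.14 (SE, limma, adjusted p = 0.00079) with siKeap1-1. With siKeap1-2 it was -0.39 ± 0.14 (95% confidence interval -0.68 to -0.11, adjusted p = 0.0948), which did not pass the threshold.

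The other Fads2 probe sets passed the threshold with siKeap1-2 too. For 1449325_at the medians were 12.15 with siControl, 11.04 with siKeap1-1 and 11.37 with siKeap1-2, and the log2 fold changes were -1.09 (adjusted p = 0.000336) and -0.62 (adjusted p = 0.0426). For 1443838_x_at the medians were 11.11, 10.16 and 10.35, and the changes were -0.93 (adjusted p = 0.000823) and -0.59 (adjusted p = 0.0359). Whether Fads2 counts as lower with siKeap1-2 thus depended on the probe set. Without siKeap1-2 replicate 1, the highest array of its group at all 3 probe sets, the change at the brightest was -0.48 (adjusted p = 0.0322). Leaving out the highest treated array can only enlarge a decrease.

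Scd2, a stearoyl-CoA desaturase that makes monounsaturated fatty acids, did not pass the test in either comparison. At its brightest probe set the log2 signal was 5.81, 6.83 and 7.14 (lowest, median and highest) with siControl, 6.40, 7.03 and 7.34 with siKeap1-1 and 6.01, 6.76 and 8.53 with siKeap1-2. The groups overlapped, and the log2 fold changes were 0.26 (95% confidence interval -0.26 to 0.77) and 0.19 (-0.33 to 0.70). The value of 8.53 belonged to siKeap1-2 replicate 1, and without this array the change with siKeap1-2 was -0.05. The other Scd2 probe sets were dim, with group means of 4.47 to 4.56 and of 3.05 to 3.11, and the latter lay on average no higher than 9.1% of all probe sets, so that a change in Scd2 was hardly measurable there.

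**Figure D2:**
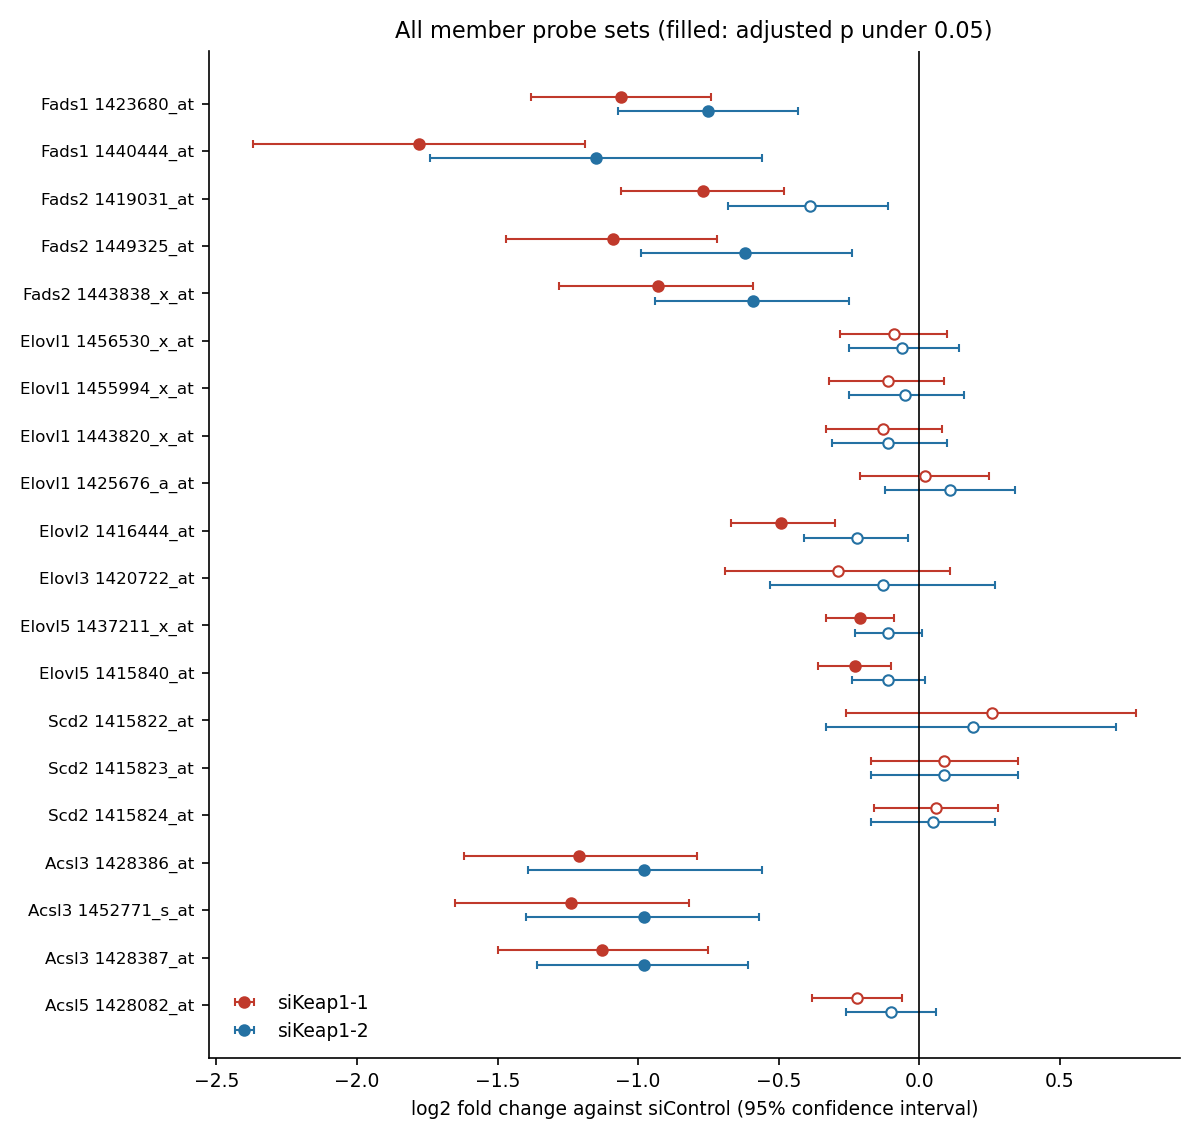
Log2 fold change against siControl (horizontal axis) with its 95% confidence interval for all 20 probe sets of the 9 measured genes, in red for siKeap1-1 and in blue for siKeap1-2, with filled points for an adjusted p below 0.05 in limma. The filled points, 11 for siKeap1-1 and 7 for siKeap1-2, all lie to the left of 0 and belong to Fads1, Fads2, Elovl2, Elovl5 and Acsl3.

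Elovl2, which lengthens the long polyunsaturated chains on the way to docosahexaenoic acid, was lower with siKeap1-1. Its log2 signal was 13.12, 13.41 and 13.53 (lowest, median and highest) with siControl, 12.53, 12.94 and 13.03 with siKeap1-1 and 12.93, 13.09 and 13.54 with siKeap1-2. The siKeap1-1 arrays all lay below the controls, while 4 of 8 siKeap1-2 arrays did and 1 lay above the highest control. The log2 fold change was -0.49 ± 0.09 (SE, limma, adjusted p = 0.000857), a 1.40-fold lower signal, with siKeap1-1. With siKeap1-2 it was -0.22 ± 0.09 (95% confidence interval -0.41 to -0.04, adjusted p = 0.143). Without replicate 1, the highest array of its group, whose removal can only enlarge a decrease, it was -0.28 (adjusted p = 0.0459).

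Elovl5, which elongates the products of Fads2, was lower with siKeap1-1 by a small amount. The log2 signal was 14.20, 14.36 and 14.47 (lowest, median and highest) with siControl, 13.97, 14.12 and 14.27 with siKeap1-1 and 14.10, 14.26 and 14.46 with siKeap1-2, with 6 of 8 siKeap1-1 arrays below the lowest control. The log2 fold change was -0.21 ± 0.06 (SE, limma, adjusted p = 0.0219) with siKeap1-1 and -0.11 ± 0.06 (adjusted p = 0.28) with siKeap1-2. The other probe set, 1415840_at, gave -0.23 (adjusted p = 0.0241) and -0.11 (adjusted p = 0.351), so the probe sets did not disagree. Their mean signals lay at or above those of 99.7% and 99.4% of all probe sets. Whether so bright a signal limits the size of a change was not tested.

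Elovl1 and Elovl3, which act mainly on saturated and monounsaturated chains, did not pass the test with either siRNA. The 4 probe sets of Elovl1 had log2 fold changes of -0.13 to 0.02 with siKeap1-1 and of -0.11 to 0.11 with siKeap1-2. At the brightest, the log2 signal was 12.28, 12.73 and 12.79 (lowest, median and highest) with siControl, 12.23, 12.62 and 12.79 with siKeap1-1 and 12.28, 12.68 and 12.79 with siKeap1-2, and the groups overlapped almost wholly. The confidence interval of its change, -0.28 to 0.10 with siKeap1-1 and -0.25 to 0.14 with siKeap1-2, does not include the decrease measured for Fads1. Elovl3 had a log2 signal of 10.51, 10.84 and 11.29 with siControl, 9.96, 10.46 and 11.27 with siKeap1-1 and 9.92, 10.75 and 11.43 with siKeap1-2. Its changes were -0.29 ± 0.19 (SE, 95% confidence interval -0.69 to 0.11) and -0.13 ± 0.19 (-0.53 to 0.27). The spread between mice was 0.29 (SD) with siControl and 0.47 in either treated group.

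Acsl3, an acyl-CoA synthetase of the endoplasmic reticulum and of lipid droplets, was lower with both siRNAs at all 3 of its probe sets. At the brightest, the log2 signal was 10.46, 10.64 and 11.00 (lowest, median and highest) with siControl, 8.76, 9.51 and 9.94 with siKeap1-1 and 8.96, 9.88 and 10.28 with siKeap1-2. None of the treated arrays reached the lowest control. The log2 fold changes were -1.21 ± 0.20 (SE, limma, adjusted p = 0.000327), a 2.31-fold lower signal, and -0.98 ± 0.20 (adjusted p = 0.00404), a 1.97-fold lower signal. The other probe sets, 1452771_s_at and 1428387_at, gave -1.24 and -1.13 with siKeap1-1 and -0.98 each with siKeap1-2, and none of their treated arrays reached a control array either. The spread between mice was 0.22 (SD) with siControl, 0.43 with siKeap1-1 and 0.56 with siKeap1-2.

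Acsl5, an acyl-CoA synthetase of mitochondria and the endoplasmic reticulum, did not pass the threshold. Its log2 signal was 13.45, 13.76 and 13.89 (lowest, median and highest) with siControl, 13.32, 13.44 and 13.69 with siKeap1-1 and 13.46, 13.58 and 13.82 with siKeap1-2. The log2 fold change was -0.22 ± 0.08 (SE, limma, adjusted p = 0.0803) with siKeap1-1, and all 8 arrays lay below the control mean. Without siControl replicate 4, the lowest control, it was -0.26 (adjusted p = 0.038), but leaving out the lowest control can only enlarge a decrease. With siKeap1-2 it was -0.10 ± 0.08 (adjusted p = 0.517).

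Between the siRNAs, 0 of the 9 genes and 0 of the 20 probe sets differed by limma with adjusted p below 0.05, against 0.162% of all probe sets in either direction. An unadjusted p below 0.05 was seen for 2 genes, Fads2 and Elovl2, and for 4 probe sets. Fads2 was lower with siKeap1-1 by 0.38 (95% confidence interval -0.66 to -0.09 for the log2 difference, adjusted p = 0.362) and Elovl2 by 0.27 (-0.45 to -0.08, adjusted p = 0.305). The difference in Fads1 was -0.31 (-0.63 to 0.01) and that in Acsl3 -0.23 (-0.64 to 0.18). Of the 9 genes, 8 had a log2 difference below 0, as did 43.2% of all genes. The median was -0.16, against 0.018 over all genes.

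**Figure D3:**
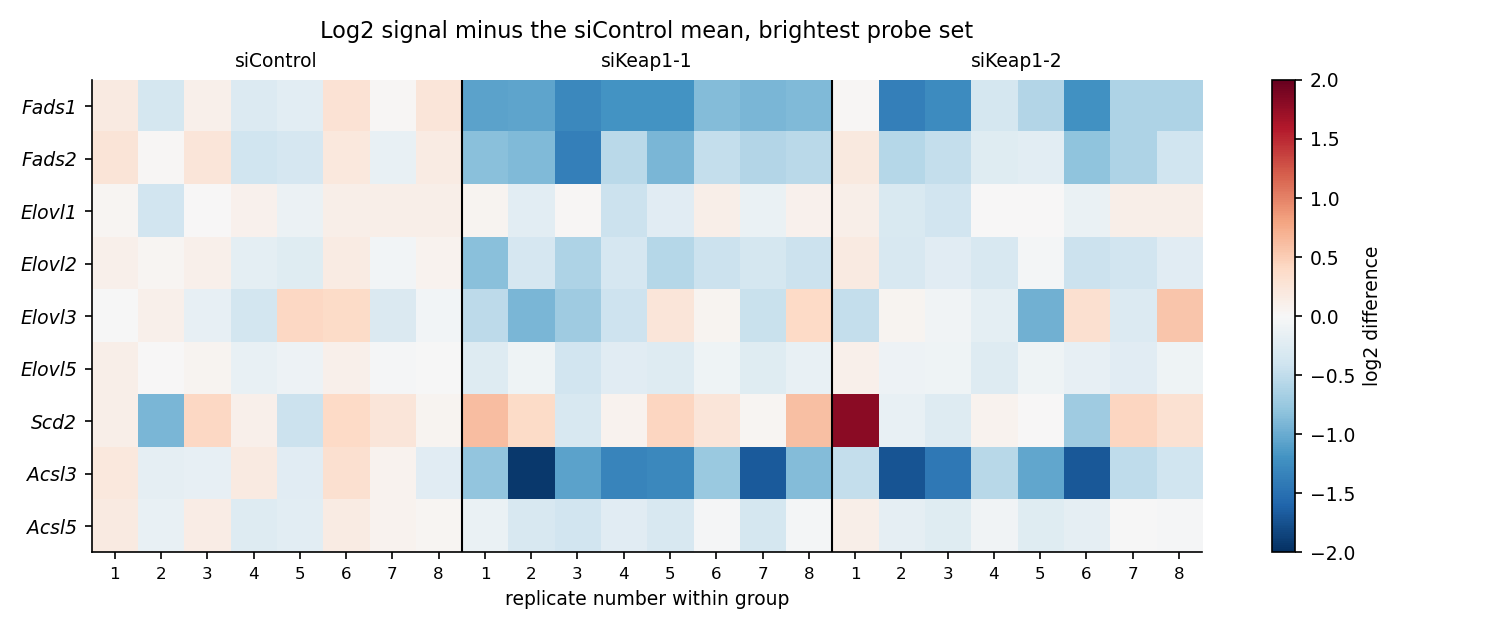
Log2 signal of the brightest probe set minus the siControl mean (colour, blue for lower and red for higher, limited to 2 in either direction) for the 9 measured genes (rows) on all 24 arrays (columns, by group and replicate number). Fads1, Fads2, Elovl2 and Acsl3 are blue on all siKeap1-1 arrays, and siKeap1-2 replicate 1 stands apart within its group by its dark red in Scd2.

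Within siKeap1-2, replicate 1 was the highest array of its group for 6 of the 9 genes, namely Fads1, Fads2, Elovl2, Elovl5, Scd2 and Acsl5. Its log2 signals were 13.13 for Fads1, 13.85 for Fads2 and 13.54 for Elovl2, all within or above the range of the controls. For Acsl3 the same array read 10.20, below the lowest control. Without this array, Fads1, Fads2, Elovl2 and Acsl3 passed the threshold with siKeap1-2, in place of Fads1 and Acsl3. For genes in which it was the highest array, leaving it out can only enlarge a decrease. In siKeap1-1, replicate 6 was the highest for 5 genes and replicate 3 the lowest for 5 genes.

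The mice also differed in a control probe set for 18S ribosomal RNA, whose log2 signal exceeded that of siControl by 1.23 in siKeap1-1 mice (two-sided exact permutation p = 0.00435). In siKeap1-2 mice the excess was 1.18 (two-sided exact permutation p = 0.00155). The signal split by replicate number, from 10.34 to 10.77 in siControl replicates 1 to 3 and from 8.86 to 9.54 in replicates 4 to 8, and the other way with siKeap1-1, from 10.17 to 10.44 and from 11.17 to 11.43. With its signal as a covariate in the fit, Fads1, Fads2, Elovl2 and Acsl3 remained lower with siKeap1-1, with log2 fold changes of -0.96 (adjusted p = 0.0136), -0.97 (adjusted p = 0.00432), -0.57 (adjusted p = 0.00978) and -1.14 (adjusted p = 0.0266). Elovl5 did not (-0.25, adjusted p = 0.0991), and with siKeap1-2 none of the 9 genes passed, with -0.66 (adjusted p = 0.225) for Fads1 and -0.91 (adjusted p = 0.182) for Acsl3. When only siControl replicates 1 to 3 served as controls, those with 18S signals nearest to the treated arrays, the values were -0.73 (adjusted p = 0.159) and -0.94 (adjusted p = 0.178).

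The comparison was also made among replicates 1 to 3 and among replicates 4 to 8 of every group, a split chosen after seeing the data. In replicates 4 to 8 the 18S signal was 8.86 to 9.54 with siControl, 11.17 to 11.43 with siKeap1-1 and 10.45 to 10.96 with siKeap1-2. The groups thus differed more in 18S signal there than in replicates 1 to 3, and its part in the changes was not tested. Among replicates 4 to 8, Fads1 fell by 1.02 and 0.69 with siKeap1-1 and siKeap1-2, and Acsl3 fell by 1.20 and 0.87, all with an adjusted p below 0.05. Among replicates 1 to 3 the differences were at least as large for Fads1 (-1.12 and -0.86) and Acsl3 (-1.21 and -1.16), but with 3 arrays per group only Fads2 passed the threshold with siKeap1-1 (-1.21, adjusted p = 0.038). With the split as a term in the fit, the calls were the same 5 and 2 genes. Every group holds the same replicate numbers, so this term leaves each log2 fold change as it was and alters only its error.

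**Figure D4:**
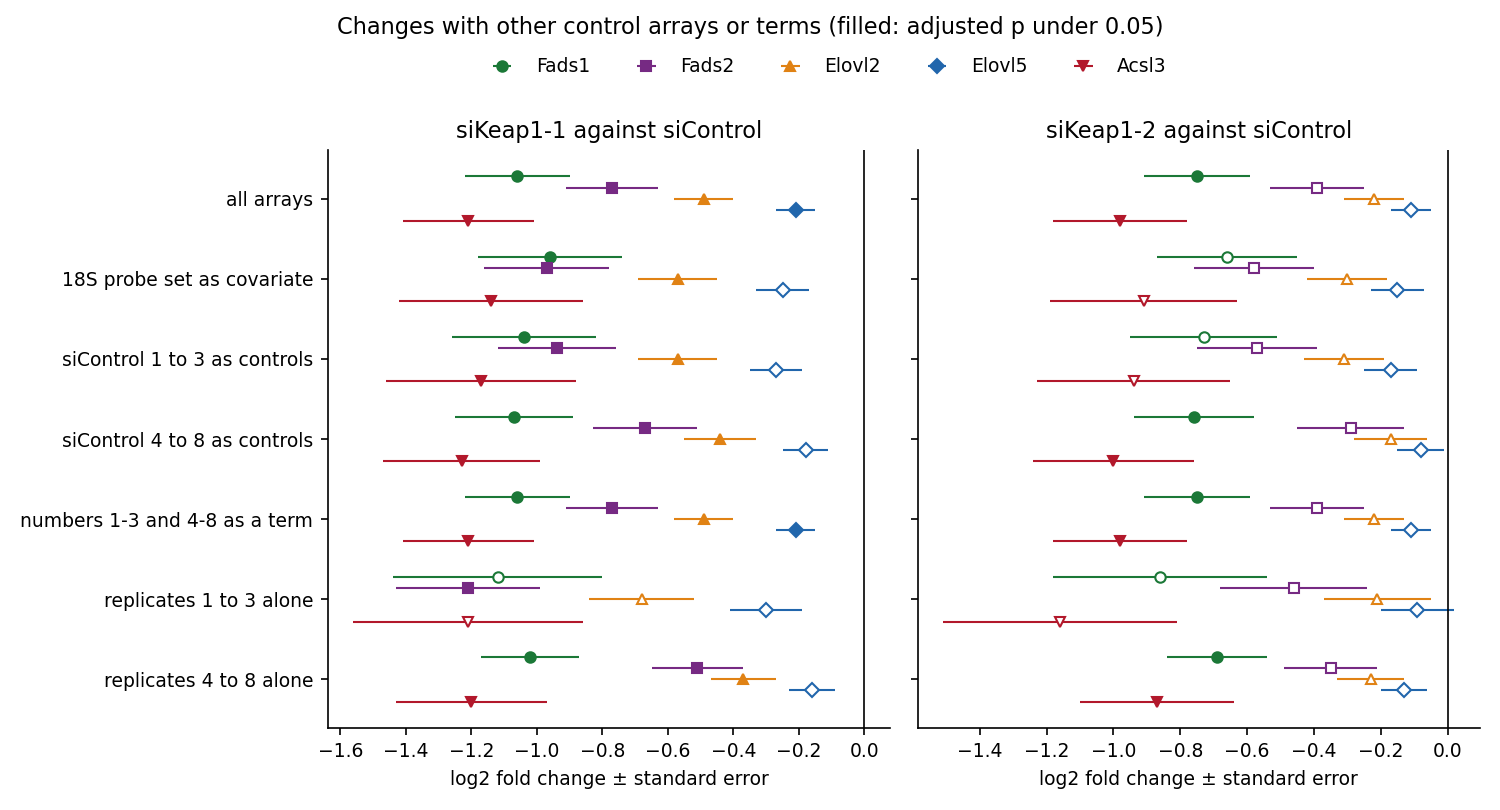
Log2 fold change against siControl with its standard error (horizontal axes) for Fads1, Fads2, Elovl2, Elovl5 and Acsl3, left for siKeap1-1 and right for siKeap1-2, with all arrays, with the 18S signal in the fit and with other sets of arrays (rows), filled for an adjusted p below 0.05. Every point lies left of 0, and the points for Fads1 and Acsl3 with siKeap1-2 are open with the 18S covariate, with siControl replicates 1 to 3 as controls and among replicates 1 to 3.

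Other genes of the pathway were counted from lists chosen by function. Among 7 measured desaturases and elongases outside the list, Fads3, Fads6 and Elovl6 were lower with siKeap1-1 and Fads3 and Elovl6 with siKeap1-2, and 0 were higher. At the brightest probe set of Fads3, the neighbour of Fads2, the log2 fold changes were -0.82 (adjusted p = 0.00334) and -0.63 (adjusted p = 0.0277). The dimmest Fads3 probe set gave -0.55 and -0.60, which passed, and 1418773_at gave 0.13 and 0.15, which did not. For Elovl6, which lengthens palmitic acid, the brightest probe set gave -1.13 (adjusted p = 0.0165) and -1.01 (adjusted p = 0.0418). Of its other probe sets, 1442656_at gave -2.17 (adjusted p = 0.0129) and -1.45 (adjusted p = 0.123), and 1417403_at gave -0.66 and -0.40, neither past the threshold. Fads6, a desaturase-like gene, changed by -0.23 (adjusted p = 0.0458) and by -0.04 (adjusted p = 0.839). Its dimmer probe set, 1443904_at, showed no decrease, with 0.01 and 0.19, neither past the threshold. The change of Scd1, the main stearoyl-CoA desaturase of liver, was -0.15 and -0.13 at its brightest probe set, and -1.03 (95% confidence interval -2.28 to 0.22) and -0.86 (-2.11 to 0.38) at 1415965_at, and did not pass at either.

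The further steps of the elongation cycle and its electron donors, such as Hsd17b12, Tecr, Cyb5a and Cyb5r3, showed 0 calls among 9 genes with either siRNA, with log2 fold changes from -0.27 to 0.06 and from -0.34 to 0.05, and 0 at an unadjusted p below 0.05. Of 9 other acyl-CoA synthetases and fatty acid transport proteins, Acsl4, which prefers arachidonic acid, was lower with siKeap1-2 (-0.39, adjusted p = 0.042) and had -0.16 (adjusted p = 0.458) with siKeap1-1. A dimmer Acsl4 probe set, 1418911_s_at, gave -0.88 (limma, adjusted p = 0.00573) with siKeap1-2 and -0.40 (adjusted p = 0.207) with siKeap1-1. Another, 1451828_a_at, gave -0.49 (adjusted p = 0.162) and -0.45 (adjusted p = 0.176) in the same order. Of 6 genes for chain shortening in peroxisomes, which completes docosahexaenoic acid, Abcd2, a peroxisomal importer of very long-chain acyl-CoA, was lower by 2.01 (adjusted p = 0.00147) and 1.42 (adjusted p = 0.0283), and the others did not pass. Of its other probe sets, 1438431_at gave -2.04 (adjusted p = 0.00441) and -1.38 (adjusted p = 0.0645), 1419748_at gave -0.68 and -0.31 without passing, and the dimmest, 1439835_x_at, gave 0.00 and -0.11. Of 9 acyltransferases that place polyunsaturated chains into phospholipids, such as Lpcat3 and Mboat7, 0 passed by limma with either siRNA, and 1 had an unadjusted p below 0.05 in each comparison.

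Of 14 transcription regulators of lipid genes, Mlxipl, the carbohydrate response factor, and Scap, the escort of the sterol regulatory element-binding proteins, were lower with siKeap1-1, with -0.50 (adjusted p = 0.00527) and -0.18 (adjusted p = 0.0344). Pparg, the adipogenic receptor, was higher by 0.41 (adjusted p = 0.0326). A dimmer Scap probe set, 1442885_at, went the other way without passing, with 0.29 for siKeap1-1 and 0.07 for siKeap1-2. None of the 14 passed by limma with siKeap1-2, where 4 had an unadjusted p below 0.05 and Mlxipl had -0.37 (adjusted p = 0.0504). Srebf1, which encodes the factor known to drive desaturase genes, had -1.03 ± 0.45 (SE, adjusted p = 0.16) and -0.76 ± 0.45 (adjusted p = 0.352). Srebf2, of the same family, had -0.41 (limma, adjusted p = 0.0608) and -0.31 (adjusted p = 0.194). Its dimmer probe set gave -0.51 (adjusted p = 0.0518) and -0.39 (adjusted p = 0.17). Ppara, which encodes PPAR-alpha, had -0.20 (adjusted p = 0.0956) and -0.06 (adjusted p = 0.723). Its dimmer probe sets gave 0.27 and 0.56 (1439675_at) and 0.01 and 0.25 (1449051_at), without passing.

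Cell type markers were examined in the same libraries, since in whole liver fewer cells of a type and less RNA per cell cannot be told apart. Of 6 markers of Kupffer cells and macrophages, Vsig4 and Timd4 were lower with siKeap1-1 (-0.60 and -1.52), and with siKeap1-2 Timd4 was lower (-1.16) and Marco higher (1.49). The mean log2 signal of these 6 ranged from 8.95 to 10.12 in the siControl, from 8.50 to 9.80 in the siKeap1-1 and from 8.69 to 10.09 in the siKeap1-2 mice. Of 4 bile duct markers, Sox9 was higher with both siRNAs (0.87 and 0.96), and the mean of the 4 ranged from 6.73 to 7.47 in the siControl, from 6.96 to 7.55 in the siKeap1-1 and from 6.84 to 7.38 in the siKeap1-2 mice. Of 3 adipocyte markers, Retn was higher with siKeap1-1 by 0.33, and their mean signal was between 3.62 and 4.32 on every array. The markers of endothelium (5), stellate cells and fibroblasts (6) and lymphocytes (5) did not pass the test at their brightest probe sets. Dimmer probe sets did pass for some of them. With siKeap1-1, Lyve1 (0.89, limma, adjusted p = 0.00264) and Reln (0.24, adjusted p = 0.043) were higher there and Dcn was lower (-0.47, adjusted p = 0.0207). With siKeap1-2, Lrat was higher (0.75, adjusted p = 0.0471). The mean of the 8 hepatocyte markers ranged from 14.01 to 14.09 in the siControl, from 13.92 to 14.06 in the siKeap1-1 and from 13.95 to 14.09 in the siKeap1-2 mice. The part of these cells in the changes of the desaturases, elongases and synthetases was not tested.

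After the group means were subtracted, the signals of Fads2, Elovl2 and Elovl5 varied together over the 24 arrays, with Pearson correlations of 0.79 for Fads2 with Elovl2, 0.77 for Elovl2 with Elovl5 and 0.74 for Fads2 with Elovl5 (Spearman 0.78, 0.77 and 0.73). Without siKeap1-2 replicate 1 they were 0.73, 0.69 and 0.66. Values of similar size were found for Fads1 with Scd2 (0.75) and with Fads2 (0.72), and for Acsl5 with Fads2 (0.68) and with Fads1 (0.67), which were 0.62 to 0.63 without the same array. Acsl3 had 0.03 with Elovl2 and with Elovl5, 0.70 with Elovl1 and 0.63 with Fads1. Elovl3 stood apart, with correlations from -0.22 to 0.24 with all others. The correlations are given as a description over mice of both feeding states, and the part of the feeding state and of the degree of knockdown in them was not tested.

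**Figure D5:**
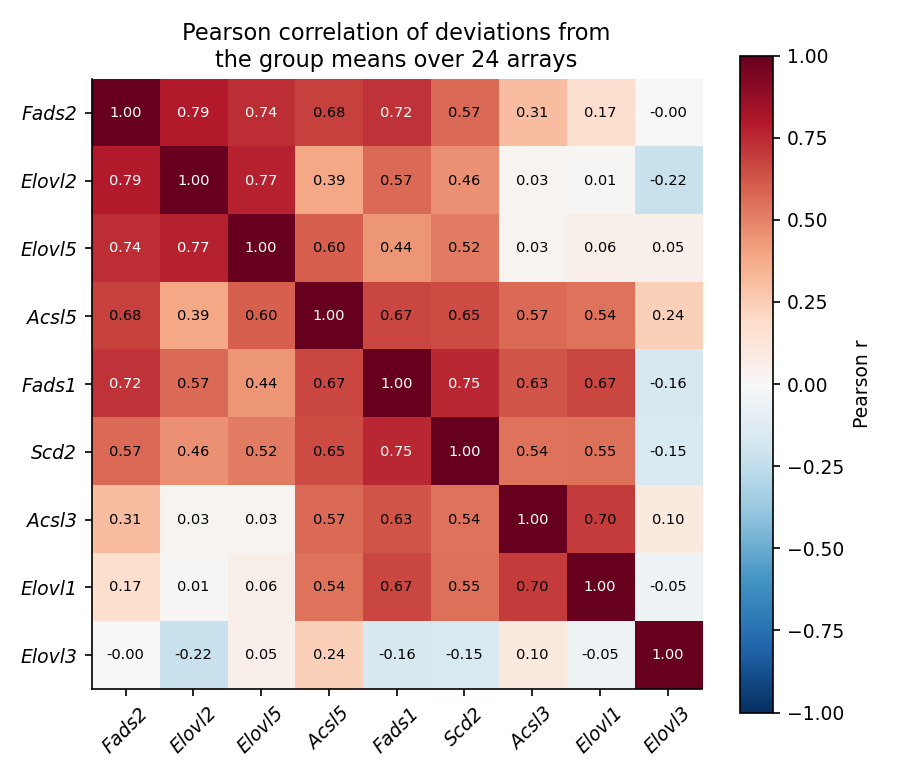
Pearson correlation between the 9 measured genes (both axes) over 24 arrays after subtraction of the group means, at the brightest probe sets, with the value in each cell. Fads2, Elovl2 and Elovl5 have 0.74 to 0.79 with each other, Fads1 has 0.75 with Scd2 and 0.72 with Fads2, and Acsl3 has 0.03 with Elovl2 and with Elovl5.

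Among 9097 genes with a mean log2 signal of at least 7.49, the 3 most like each member were sought by the same measure. For Acsl3 they were Lss (0.95), Pmvk (0.92) and Nsdhl (0.91), which all encode enzymes of cholesterol synthesis. Lss itself had log2 fold changes of -1.06 (adjusted p = 0.0416) and -1.12 (adjusted p = 0.0415), Pmvk -0.98 (adjusted p = 0.0391) and -0.94 (adjusted p = 0.0603), and Nsdhl -0.93 (adjusted p = 0.203) and -1.12 (adjusted p = 0.136). For Elovl2 they were Fads2, Mknk2 (0.78) and Elovl5, and for Elovl5 they were Elovl2, Fads2 and Fam3c (0.72). For Fads2 they were Uox (0.83), Papss2 (0.81) and Slc38a3 (0.80), and for Fads1 Mtfmt (0.86), 4732419C18Rik (0.85) and Tlcd1 (0.85). Elovl1 was most like H2az1 (0.90), Acaca (0.88), the enzyme that commits carbon to fatty acid synthesis, and Tkt (0.88). Acsl5 was most like Aqp8 (0.92), Gbe1 (0.89) and Aadac (0.88), Elovl3 like Cav1 (0.80), Atg101 (0.77) and Dct (0.77), and Scd2 like Ank3 (0.82), Zfp275 (0.82) and Pcna (0.81). Without siKeap1-2 replicate 1, the values for Scd2 were 0.77, 0.72 and 0.70.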

How the data were processed

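Liver RNA was hybridized to Affymetrix whole-genome expression arrays for the mouse, 1 per mouse. The deposited values are log2 signals that the authors made with RMA (version not given in the sources used here), a method that subtracts background, equalizes the distribution of signals between arrays and combines the probes of a set into a single value. Of 45101 probe sets, 64 control probe sets were left out. The platform annotation names 1 gene for 34945 of the others, several for 932 and none for 9160. Groups were taken from the sample labels. Groups were compared in limma 3.58.1 under R 4.3.3 (lmFit, then eBayes, 1 fit of the 3 groups, Benjamini-Hochberg adjustment over all 45037 probe sets, threshold 0.05), without a filter on dim probe sets. The study's two-way ANOVA was not fitted, because the labels give a single factor. The labels call the 8 arrays of a group replicates, and the number of arrays limits the precision.

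Named were all members and their probe sets, Keap1, Nqo1, Gclc and Gsr, from each pathway list the 3 or fewer genes past the threshold that changed most, and the 3 genes most like each member. Genes of the lists that did not pass and were named (Scd1, Srebf1, Srebf2, Ppara and those given as examples), and the marker genes past the threshold, were added after their values were seen. The members and lists were chosen with earlier results of these data known. Alternatives covered dim probe sets, normalization and centring, array weights, moderation, the replicate number as a block, the 18S probe set and the controls, the mean over probe sets, the study's thresholds and leaving out each array. The procedure was tested on simulated data. Probe set names ending in x_at or s_at mark possible cross-hybridization with other transcripts. Protein sequences were not used here. Figures were drawn with matplotlib in Python.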

Additional observations from a re-analysis of the deposited data

Results flagged for a closer look

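Of 60 groups of 8 arrays checked (20 probe sets in 3 groups), 5 held an array whose gap to the next was large against the range of its group, where chance flags about 1 in 20 groups. In 4 of them the array was siKeap1-2 replicate 1. For Fads2 1443838_x_at it read 11.35, with the next array at 10.66. For Elovl5 it read 14.46 at 1437211_x_at, with the next at 14.26, and 14.28 at 1415840_at, with the next at 14.05. For Scd2 1415822_at it read 8.53, with the next at 7.15. The remaining array was siKeap1-1 replicate 3, which read 10.39 for Fads2 1449325_at, with the next array at 10.91.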

How the results depend on the processing

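The counts of member genes were 5 with siKeap1-1 and 2 with siKeap1-2, and those of member probe sets 11 and 7. Over all probe sets 4049, 2748 and, between the siRNAs, 73 passed. When the 18S signal entered the fit as a covariate, 0 member genes and 0 member probe sets passed with siKeap1-2, and 1324 and 303 of all probe sets passed in the comparisons with siControl. With siControl replicates 1 to 3 as controls, 0 and 0 members passed with siKeap1-2, and 1540 and 358 of all probe sets, whereas with replicates 4 to 8 as controls 4303 of all probe sets passed with siKeap1-2. By a fold over 2 and an unadjusted p below 0.01 without moderation, after the study's thresholds, 2 and 0 member genes, 6 and 1 member probe sets (0.162% and 0.102% of all probe sets were lower by this rule) and 268, 245 and 24 of all probe sets passed. The 1 probe set that passed with siKeap1-2 was Fads1 1440444_at (-1.15), not the brightest of its gene. The paper lists Fads1 among the genes regulated by both siRNAs, from its own ANOVA. Among replicates 1 to 3 alone, a setting added after seeing the data, 1 and 0 member genes, 1 and 0 member probe sets and 493 and 54 of all probe sets passed. With the replicate number as a block, 5 and 2 member genes and 11 and 6 member probe sets passed, and of all probe sets 4066, 2606 and 44. The numbers do not pair the mice, since correlations between mice of the same number ran from -0.17 to 0.28, and 8 of 24 were over 0.1.

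Leaving out each array gave 5 to 6 and 2 to 4 member genes, 10 to 12 and 5 to 9 member probe sets, and 3140 to 4361, 1824 to 3295 and 36 to 75 of all probe sets. The 2 to 4 rest on siKeap1-2 replicate 1, without which 4 genes passed. Values that changed sign were those of genes that never passed. Elovl1 had 0.06 with the 18S covariate, 0.03 with siControl replicates 1 to 3 as controls and 0.07 among replicates 1 to 3 with siKeap1-1, and 0.09 and 0.06 under the former settings with siKeap1-2. Its difference between the siRNAs ran from -0.08 to 0.02 when an array was left out (0.02 without siKeap1-1 replicate 4). Scd2 with siKeap1-2 ran from -0.05 (without siKeap1-2 replicate 1) to 0.31 and was -0.06 among replicates 4 to 8, and its difference between the siRNAs ran from -0.06 (without siKeap1-2 replicate 6) to 0.30. Of the log2 fold changes of single genes, 359 of 387 under other settings and 426 of 432 without an array kept their direction and their side of the threshold. Most of these values belong to genes without a call in the comparison, which had none to lose. Under other settings, 19 values lost a call, 3 gained one and 6 changed sign. Elovl5 with siKeap1-1 lost its call with either set of controls (-0.27 and -0.18, adjusted p = 0.0703 and 0.111). The cause of these changes was not tested.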
